A study of Mus musculus with 36 samples.

Results

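The small leucine-rich proteoglycans are secreted proteins built around a short stack of leucine-rich repeats, and most carry glycosaminoglycan chains. The 8 genes described here, Dcn (decorin), Bgn (biglycan), Lum (lumican), Fmod (fibromodulin), Prelp, Ogn (osteoglycin), Omd (osteomodulin) and Aspn (asporin), were chosen by name from 24421 genes in RNA-seq count tables of the mouse cerebellum and hippocampus. Poly(A) RNA came from both tissues of 18 adult C57Bl/6 mice, 6 of each genotype with 3 males and 3 females each. Control mice were Pogzfl/fl and lacked Cre. The heterozygous mice (cKO+/-) were NesCre/+; Pogzfl/+, and the homozygous mice (cKO-/-) were NesCre/+; Pogzfl/fl. The controls therefore carry floxed Pogz alleles too, while no group had Cre without a floxed allele, so an effect of Cre itself cannot be told apart from that of the deletion. Nestin-Cre acts in the nervous system, and the cells that make these proteoglycans are mostly fibroblasts outside the neural lineage. The comparisons asked how the genes changed with the number of intact Pogz alleles (2, 1 or 0) in each tissue, and how the tissues differed.

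As background, decorin and biglycan are close relatives that carry chondroitin or dermatan sulfate chains, whereas lumican, fibromodulin, osteoglycin and osteomodulin belong to the members that can carry keratan sulfate. Asporin is a relative of decorin and biglycan with a run of aspartates and without the typical chain, and Prelp binds collagen and the heparan sulfate of basement membranes. These proteins sit on collagen fibrils and regulate their assembly, bind TGF-beta, and some act as ligands of cell surface receptors. In the adult brain they are known mainly from the meninges and from fibroblasts around larger vessels. Bulk RNA of a dissected tissue holds whatever meninges came with it, and fewer cells of a type cannot be told apart from less RNA per cell.

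The genes lie in a few clusters, given here in GRCm38, the build that the coordinates of the count tables match. Dcn (chromosome 10, 97479500 to 97518162) and Lum (97565501 to 97572703) are neighbours on the plus strand, 47339 bases apart. Aspn (chromosome 13, 49544443 to 49567562), Omd (49582747 to 49592609) and Ogn (49608071 to 49624500) follow each other on the plus strand, and the related gene Ecm2 lies 11654 bases before Aspn. All 3 lie within the span of Cenpp on the opposite strand. Cenpp shared 0 exon bases with them, and the use of strand in counting is not stated in the sources used here. Prelp (minus strand, chromosome 1, 133910304 to 133921401) and Fmod (plus strand, 134037515 to 134048277) are neighbours 116114 bases apart, and Bgn (plus strand, 73483635 to 73495936) is on chromosome X.

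The 250 bases before the RefSeq start (GRCm38.p6) are shown for the members on which the results turn and which the promoter table holds. They are Bgn, called in the cerebellum, and Fmod and Omd, whose levels lay furthest apart between the tissues. Their RefSeq starts lie before the gene starts given above, so these windows do not adjoin the latter. Each is written 5' to 3' on the strand of its gene. The runs TATAAA (the TATA box), CCAAT (the CCAAT box) and GGGCGG (a run bound by Sp1-type factors) were searched on both strands, and capitals mark the matches, with overlapping matches run together. In the Bgn window the matches read CCGCCC, which is GGGCGG on the other strand.
Bgn, chrX:73483351-73483600, plus strand: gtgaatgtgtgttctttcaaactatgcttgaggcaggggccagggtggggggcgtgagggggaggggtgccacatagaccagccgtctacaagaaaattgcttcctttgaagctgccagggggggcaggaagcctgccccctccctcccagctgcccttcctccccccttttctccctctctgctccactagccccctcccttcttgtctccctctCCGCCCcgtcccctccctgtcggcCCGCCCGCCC
Fmod, chr1:134037004-134037253, plus strand: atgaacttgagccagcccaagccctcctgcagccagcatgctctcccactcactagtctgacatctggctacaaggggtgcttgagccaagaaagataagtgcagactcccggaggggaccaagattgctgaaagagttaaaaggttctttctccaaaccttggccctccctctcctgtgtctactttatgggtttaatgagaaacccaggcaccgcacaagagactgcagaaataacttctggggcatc
Omd, chr13:49582212-49582461, plus strand: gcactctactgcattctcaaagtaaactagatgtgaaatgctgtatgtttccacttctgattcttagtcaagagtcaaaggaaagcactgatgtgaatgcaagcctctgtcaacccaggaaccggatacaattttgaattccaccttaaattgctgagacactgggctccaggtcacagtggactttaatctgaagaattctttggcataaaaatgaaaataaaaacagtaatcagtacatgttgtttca
Bgn had 3 matches to GGGCGG, all on the complementary strand, with 7 CpG dinucleotides and 64.4% G and C. Fmod and Omd had no match to any of the 3 runs, with 2 and 1 CpG and 51.2% and 38.4% G and C. Of 32851 promoter windows of this length, 32.7% held GGGCGG, 33.8% CCAAT and 12.4% TATAAA on either strand, and the median window had 6 CpG. A window without a match says only that these letters are not in it.

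Library totals ranged from 21421850 to 32544929 counts in the cerebellum and from 17609321 to 45544188 in the hippocampus. Pogz, the targeted gene, was lower per allele lost in both tissues. Its log2 change was -0.30 in the cerebellum (SE 0.046, adjusted p = 0.00036) and -0.28 in the hippocampus (SE 0.020, adjusted p = 1.8e-07). Its counts come from the whole gene, deleted and retained exons together. Of 8 cerebellar neuron markers, 8 were lower in the control hippocampus, beside 36.7% of all genes. Of 8 hippocampal neuron markers, 7 were higher there, beside 35.2% of all genes. Several markers of each list passed the filter only through the tissue they mark. Their direction was fixed in advance and is no check of the tissue labels. The study's reporting form states that an abnormal RNA sample was excluded but does not name it. Sample_1160, a cKO-/- female, was taken to be this sample and does not enter the hippocampal fits, which called 636 genes per allele without its library and 246 over all 18. Its values and the fits over all 18 libraries are given beside the results that they change. Ttr, made by choroid plexus, was at 2177 to 2936 CPM (reads of a gene scaled to a common library size) in 3 cerebellar libraries, all of mutant mice, and at 1018 to 4557 CPM in 4 hippocampal libraries, 2 of controls and 2 of cKO-/- mice. Every control had a number from Sample_1120 to Sample_1219, whereas 3 cKO+/- mice (Sample_933, Sample_938, Sample_1433) and 4 cKO-/- mice (Sample_936, Sample_1371, Sample_1379, Sample_1385) had numbers outside this range. The controls themselves ran from Sample_1129 to Sample_1192, and the animals at both ends of the range, Sample_1120 and Sample_1219, were mutants. What the numbers stand for is not given in the sources used here.

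In the control cerebellum, levels per length (RPKM, the CPM per kilobase of exon) fell into tiers whose ranges over the 6 mice did not meet. Dcn was at 13.0 ± 2.41 RPKM and Fmod at 11.9 ± 1.55 (SD, n = 6 here and below), and these neighbours in the order overlapped. Ogn (7.57 ± 0.73), Bgn (7.28 ± 0.94) and Prelp (6.03 ± 1.18) formed the next tier and overlapped one another. Lum (2.15 ± 0.58) and Omd (1.90 ± 0.20) came below them and overlapped, and Aspn was the lowest at 1.03 ± 0.089. In the control hippocampus the order was Dcn (12.4 ± 6.23), Prelp (9.98 ± 3.26), Bgn (7.10 ± 2.96), Ogn (3.05 ± 1.31), Lum (2.35 ± 0.84), Fmod (2.12 ± 0.97), Aspn (0.62 ± 0.064) and Omd (0.25 ± 0.15), and the spread was wider. There Dcn, from 3.32 to 19.7 RPKM, overlapped with Prelp and Bgn and also with Ogn and Lum, and Ogn, Lum and Fmod overlapped. The highest Ogn value lay just under the lowest Bgn value (4.83 and 4.90 RPKM), Aspn lay below Fmod, and Omd lay below Aspn, each without overlap. Fmod thus stood beside Dcn in the cerebellum and beside Lum in the hippocampus.

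Fmod, Ogn and Aspn were lower in the control hippocampus than in the control cerebellum, and Prelp was higher. These were the 4 called at an FDR of 0.05 of the 7 members above 1 CPM in both tissues, beside 71.9% of 14224 genes tested called in either direction (36.7% lower, 35.2% higher). Omd, first described in bone, passed the filter only through the cerebellum, so its difference is given without a test. It had 2.71 to 3.64 CPM (median 3.40) in the cerebellum and 0.134 to 0.843 CPM (median 0.434) in the hippocampus, where the counts were 4 to 39 per library. None of the 6 hippocampal libraries was above 1 CPM, and the log2 difference was -2.82. Fmod, which controls the growth of collagen fibrils, ranged from 28.8 to 39.8 CPM (median 34.2) in the cerebellum and from 2.84 to 9.17 CPM (median 5.73) in the hippocampus, a log2 difference of -2.42 (SE 0.25, adjusted p = 1.1e-06). No hippocampal library reached the lowest cerebellar one for either gene.

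Ogn, a small matrix protein next to Omd in the genome, ranged from 17.4 to 21.6 CPM in the cerebellum and from 4.53 to 12.3 CPM in the hippocampus (log2 difference -1.25, SE 0.21, adjusted p = 0.00012). Aspn was lower by less, 2.13 to 2.72 CPM against 1.24 to 1.64 CPM (log2 difference -0.64, SE 0.11, adjusted p = 0.00018). The tissues did not overlap for these 2 genes either, so that 3 of the 7 members had every hippocampal library below every cerebellar one, beside 30.7% of all genes. Prelp went the other way, with 18.6 to 30.1 CPM in the cerebellum and 25.1 to 55.1 CPM in the hippocampus (log2 difference 0.81, SE 0.20, adjusted p = 0.0020), and its groups overlapped. Dcn, Lum and Bgn passed no test. Their log2 differences were -0.08 (SE 0.31), 0.17 (SE 0.21) and 0.04 (SE 0.21).

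**Figure D1:**
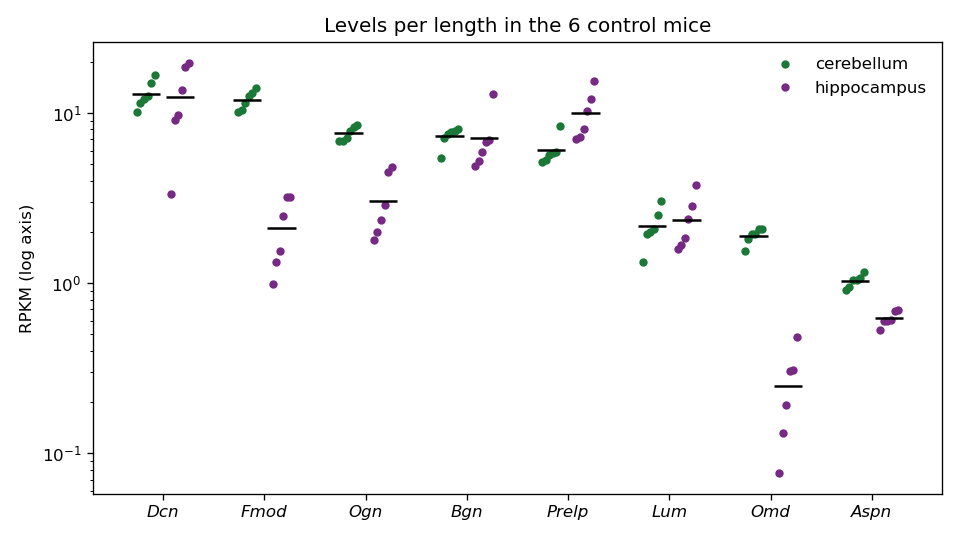
Levels per length (RPKM, log axis) of the 8 genes in the cerebellum (green) and hippocampus (purple) of the 6 control mice, with 1 point per library and a line at each mean. Fmod, Ogn, Omd and Aspn have every hippocampal point below every cerebellar point, while Dcn, Bgn and Lum overlap.

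Markers of meningeal fibroblasts were also compared between the control tissues. Of the 16 markers, 12 were lower in the control hippocampus, beside 36.7% of all genes. The 16 include a marker that passed the filter only through the cerebellum, so its direction was fixed in advance. Their summed levels overlapped, at 288 to 388 CPM in the cerebellum and 179 to 422 CPM in the hippocampus. Col1a2 and Col3a1, fibrillar collagen chains on this list, differed by -1.47 and -0.91 on the log2 scale. The 1 marker that was higher was Cdh11 (1.97), named after its value was seen. Markers of pericytes and smooth muscle (5 of 8 lower) and of endothelium (6 of 7 lower) were also lower in the hippocampus. Of choroid plexus markers 3 of 6 were higher, beside 35.2% of all genes. The part of these cell types in the proteoglycan differences was not tested. Among other genes of the family, Podn was higher and Nyx and Ecm2 lower in the hippocampus, beside 71.9% of all genes called in either direction. Epyc, a cartilage proteoglycan that passed the filter only through the hippocampus and is given without a test, had 2.03 to 3.25 CPM in the control hippocampus and at most 0.0344 CPM in the control cerebellum.

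In the cerebellum, Dcn and Bgn were called higher in the fit per Pogz allele lost over all animals. They were 2 of 8 members called, beside 13.7% of 14027 genes tested (7.11% higher). In cKO+/- mice neither passed against controls (adjusted p = 0.45 for Dcn and 0.43 for Bgn), so a step at each allele was not shown. All 8 members had positive log2 changes per allele, with a median of 0.18 beside 0.00087 for all genes, and 6 of them did not pass. Dcn, which binds collagen and restrains TGF-beta and several receptor kinases, ranged from 21.0 to 34.7 CPM in controls (median 25.7), from 28.5 to 47.1 CPM in cKO+/- mice (median 32.6) and from 23.1 to 56.2 CPM in cKO-/- mice (median 46.5). The groups overlapped, and 4 of 6 cKO-/- libraries lay above every control. Its log2 change per allele lost was 0.34 (SE 0.087, adjusted p = 0.018), and cKO-/- exceeded control by 0.68 (SE 0.18, adjusted p = 0.022), a fold of 1.60. The latter call was lost without Sample_1190, Sample_1371, Sample_1379 or Sample_1385 (adjusted p at most 0.058).

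Bgn, a ligand of the innate immune receptors Tlr2 and Tlr4, ranged from 13.1 to 19.2 CPM in controls (median 18.1), from 16.5 to 26.6 CPM in cKO+/- mice (median 21.7) and from 15.7 to 30.1 CPM in cKO-/- mice (median 26.4). Here too 4 of 6 cKO-/- libraries, and 4 of 6 cKO+/- libraries, lay above every control. The log2 change per allele was 0.25 (SE 0.078, adjusted p = 0.040), and cKO-/- exceeded control by 0.50 (SE 0.16, adjusted p = 0.044). Both calls were lost without any one of Sample_936, Sample_1120, Sample_1129, Sample_1155, Sample_1170, Sample_1172, Sample_1190, Sample_1192, Sample_1371, Sample_1379 and Sample_1385 (adjusted p per allele up to 0.116), and the latter also without Sample_938. Over the libraries with Ttr at or below 100 CPM the change per allele was 0.21 (adjusted p = 0.087). In the comparison of cKO-/- with control, Dcn and Bgn were again the 2 members called, beside 12.7% of all genes (6.83% higher). For no member did the 6 cKO-/- libraries all lie above or all below the controls, beside 2.67% of all genes above and 1.90% below.

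The other 6 members did not pass. Lum, a keratan sulfate proteoglycan of collagen-rich tissue, had 2.75 to 6.32 CPM in controls, 4.72 to 12.8 CPM in cKO+/- mice and 3.79 to 9.01 CPM in cKO-/- mice (log2 change per allele 0.30, SE 0.13, adjusted p = 0.13). The highest value was that of the cKO+/- library of Sample_1433, and without this animal Lum passed (adjusted p = 0.0496). Ogn and Omd spread widely in cKO-/- mice and narrowly in controls. The coefficient of variation of Ogn was 9.70% in controls and 41.5% in cKO-/- mice, and that of Omd was 10.3% and 55.3%. For Ogn, 4 of 6 cKO-/- libraries lay above every control (28.1 to 41.4 CPM, against at most 21.6 CPM) and the other 2 below every control (12.2 and 15.2 CPM). Fmod and Omd had the same split of 4 above and 2 below. The log2 changes per allele were 0.25 (SE 0.12) for Ogn, 0.11 (SE 0.10) for Prelp, 0.10 (SE 0.094) for Aspn, 0.09 (SE 0.095) for Fmod and 0.09 (SE 0.15) for Omd.

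**Figure D2:**
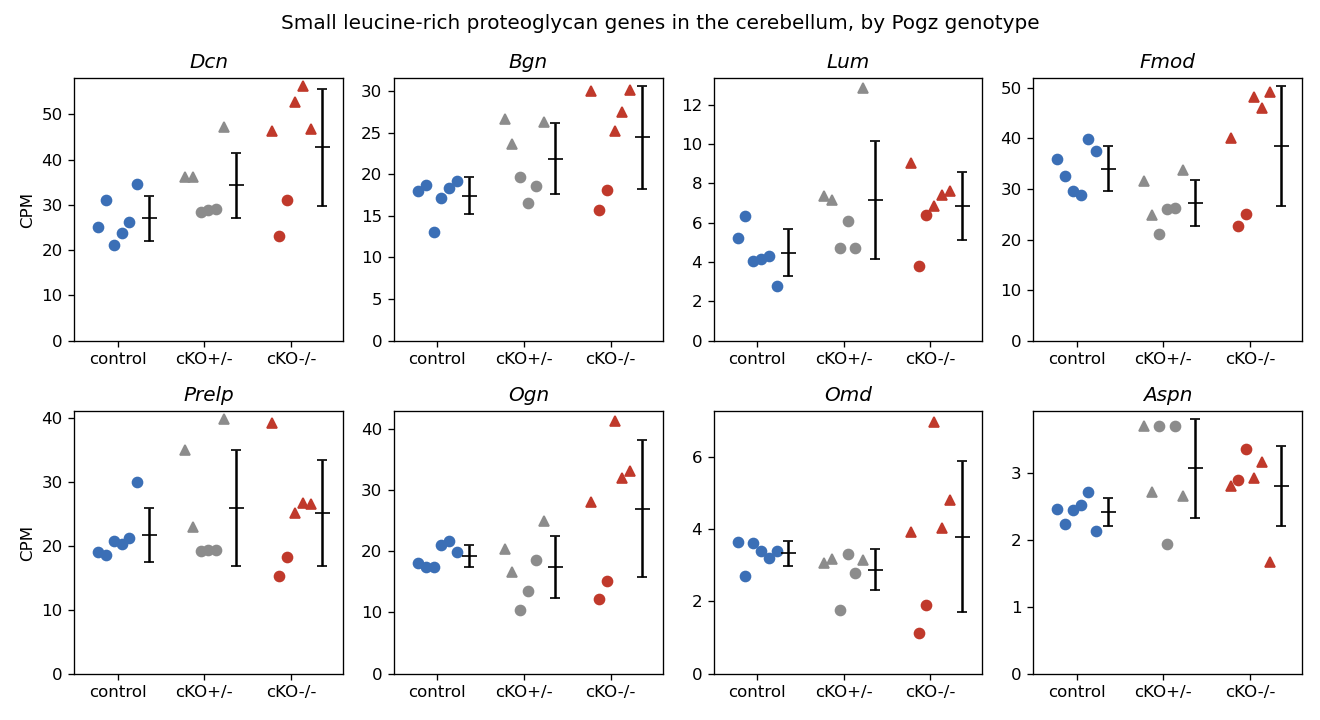
Levels (CPM) of the 8 genes in the cerebellum by genotype, 1 point per library, with the mean and SD (n = 6) beside each group. Circles are animals from Sample_1120 to Sample_1219, triangles the others. For Dcn the triangles of cKO-/- mice lie between 46.3 and 56.2 CPM and the circles at 23.1 and 31.1 CPM, within the control range.

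The split followed the animal numbers. The cKO-/- libraries above every control for Dcn, Bgn, Fmod, Ogn and Omd were those of Sample_936, Sample_1371, Sample_1379 and Sample_1385. The lower 2 were those of Sample_1160 and Sample_1219, which are within the range. For Dcn the values were 46.3, 52.8, 56.2 and 46.8 CPM outside the range, and 23.1 and 31.1 CPM within it. The cKO+/- mice divided likewise, with 36.1 to 47.1 CPM outside the range and 28.5 to 29.2 CPM within it. With a term for the range in the fit, 0 of 8 members were called, and the log2 change per allele was 0.10 for Dcn (SE 0.070, adjusted p = 0.51) and 0.03 for Bgn (SE 0.053, adjusted p = 0.81). In all genes, 308 were then called in place of 1916.

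Among the 11 cerebellar libraries of animals within the range, Dcn changed by 0.03 per allele (SE 0.063, adjusted p = 0.81) and Bgn by 0.00026 (SE 0.061, adjusted p = 0.999). Fmod, Ogn, Omd and Prelp had negative values there, and Lum a positive one (0.12). Fmod was lower by 0.29 (log2 change -0.29, SE 0.061, adjusted p = 0.035), the 1 of 8 members called beside 1.74% of 13666 genes. It had 28.8 to 39.8 CPM in 6 controls, 21.1 to 26.1 CPM in 3 cKO+/- mice and 22.7 and 25.0 CPM in 2 cKO-/- mice. This fit was added after seeing the data, and the term for the range over all animals gave -0.10 for Fmod (adjusted p = 0.70). Omd (-0.51, SE 0.13, adjusted p = 0.068), Ogn (-0.28, SE 0.076, adjusted p = 0.097) and Prelp (-0.18, SE 0.071, adjusted p = 0.27) did not pass. Outside the range there were no controls, so no test of genotype against control could be made there. The number range and the mutant genotypes cannot be told apart for the 7 animals outside it.

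Heterozygous mice passed no test against controls for any member in the cerebellum. The log2 differences ranged up to 0.66 for Lum (SE 0.24, adjusted p = 0.34) and down to -0.33 for Fmod (SE 0.17, adjusted p = 0.46), and 2 of 8 members had an unadjusted p under 0.05. DESeq2 also called 0 members. In all genes 0.342% were called.

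In the hippocampus, Lum was called in the fit per allele lost and Dcn had the largest change. Lum was the 1 of 7 members called (beside 4.44% of 14339 genes tested, 2.09% higher), since Omd was above 1 CPM in only 2 of 18 hippocampal libraries and was not tested. Of the 7, 6 had positive changes, with a median of 0.26 beside 0.0017 for all genes. Lum had 3.29 to 7.78 CPM in controls (median 4.38) and 4.36 to 7.52 CPM in cKO+/- mice (median 5.42). In the 5 cKO-/- mice of the fit it had 4.60, 7.85, 7.87, 7.81 and 17.2 CPM, so that all but Sample_936 lay above every control, narrowly except for Sample_1385. The log2 change per allele was 0.46 (SE 0.12, adjusted p = 0.032), and it was 0.46 over all 18 libraries (adjusted p = 0.0498). In cKO+/- mice Lum exceeded controls by 0.25 (SE 0.24, adjusted p = 0.80), which did not pass, so a step at each allele was not shown.

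The call of Lum depended on single animals. It was lost without any one of Sample_1155, Sample_1170, Sample_1190, Sample_1192, Sample_1219, Sample_1371 and Sample_1385 (adjusted p 0.0577 to 0.149), and the log2 change stayed between 0.30 and 0.53 in all 17 fits with an animal left out. The highest library, that of Sample_1385, had 4542 CPM of Ttr. Over the libraries with Ttr at or below 100 CPM, the change of Lum was 0.33 (SE 0.099, adjusted p = 0.13). With the term for the number range it was 0.43 (SE 0.16, adjusted p = 0.51), with 68 genes called in all in place of 636.

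Dcn ranged from 6.92 to 41.0 CPM in controls (median 24.4) and from 32.2 to 88.1 CPM in cKO+/- mice (median 64.3). In the 5 cKO-/- mice of the fit, Sample_936, Sample_1219, Sample_1371, Sample_1379 and Sample_1385, it had 32.8, 51.3, 89.7, 86.6 and 56.4 CPM. Of the cKO+/- libraries 5 of 6, and of the cKO-/- libraries 4 of 5, lay above every control, and the lowest control was that of Sample_1155. The log2 change per allele was 0.70 (SE 0.21) and did not pass (adjusted p = 0.073), though DESeq2 called it (adjusted p = 0.021). Against controls, cKO-/- mice were higher by 1.38 (SE 0.35, adjusted p = 0.030), a fold of 2.6, and cKO+/- mice by 1.39 (SE 0.34, adjusted p = 0.17). The heterozygous and homozygous means were 63.6 ± 19.1 (SD, n = 6) and 63.4 ± 24.3 CPM (SD, n = 5), beside 25.8 ± 13.0 CPM in controls (SD, n = 6).

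Hippocampal Dcn overlapped between animals within and outside the number range. The cKO+/- mice had 32.2 to 74.4 CPM within the range and 58.1 to 88.1 CPM outside it, and Sample_1219, within the range, had 51.3 CPM. Among the 10 libraries within the range, Dcn changed by 0.93 per allele (SE 0.30, adjusted p = 0.46), with 18 genes called in all. That fit rests on 1 cKO-/- library, assumed to vary like the others. In the comparison of cKO-/- with control, Dcn and Lum (0.94, SE 0.24, adjusted p = 0.032) were the 2 of 7 members called, beside 4.87% of all genes (2.29% higher). For no member did the 5 cKO-/- libraries all lie above or all below the controls, beside 1.53% and 2.12% of all genes. With the term for the range, the cKO-/- difference of Dcn was 1.16 (adjusted p = 0.53), and at low Ttr it was 1.69 (adjusted p = 0.105). Its call was lost without Sample_1190, Sample_1192, Sample_1371 or Sample_1379 (adjusted p up to 0.104). Over all 18 libraries neither was called (Dcn 1.31, adjusted p = 0.068, and Lum 0.92, adjusted p = 0.059), although Sample_1160 had 53.4 CPM of Dcn and 9.88 CPM of Lum, both above every control, and 256 genes were called in place of 699. In the cKO+/- comparison 0 of 7 members were called, beside 0.0349% of all genes, 2 had an unadjusted p under 0.05, and DESeq2 called Dcn alone (adjusted p = 0.030). Without Sample_1176, the lowest cKO+/- library, edgeR called Dcn as well (adjusted p = 0.030).

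**Figure D3:**
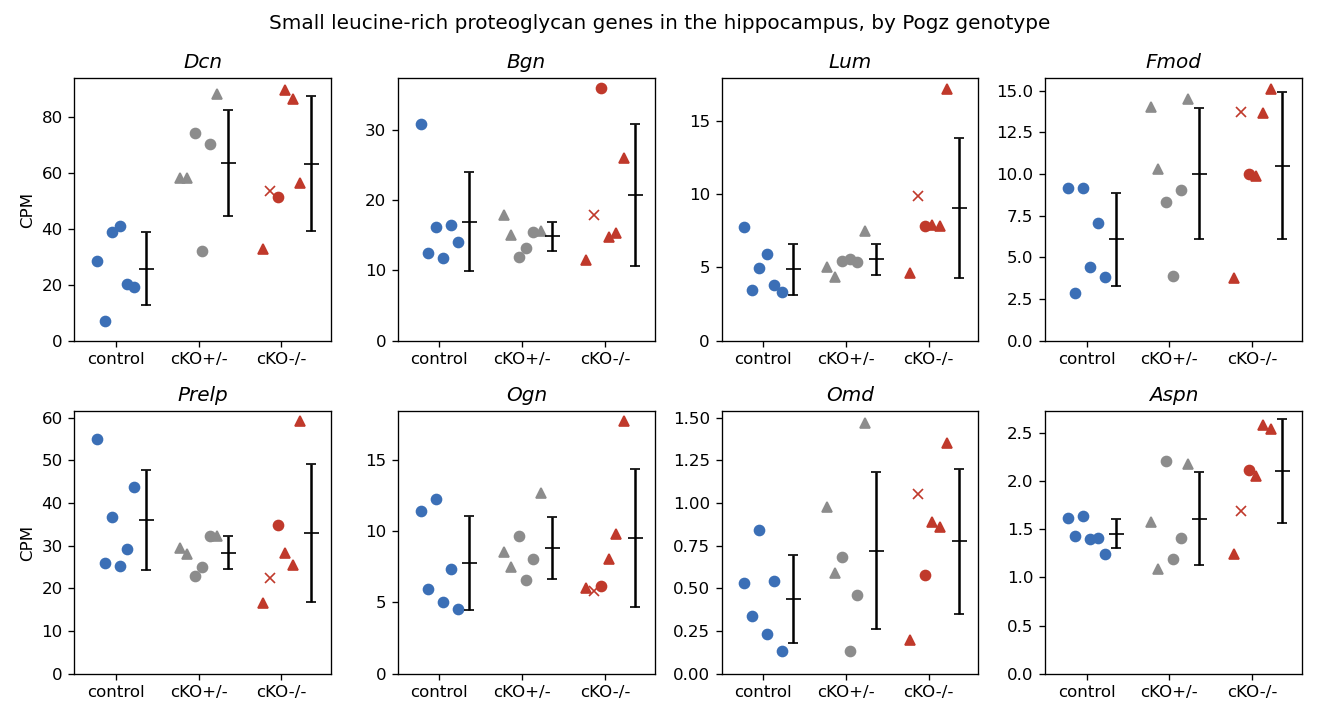
Levels (CPM) of the 8 genes in the hippocampus by genotype, 1 point per library, with the mean and SD beside each group (n = 6, 6 and 5). Circles are animals from Sample_1120 to Sample_1219, triangles the others, and the cross is Sample_1160, left out of the mean and the fit. Of the 6 cKO+/- points for Dcn, 5 lie above the highest control at 41.0 CPM, on both sides of the number range.

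The remaining members did not pass in the hippocampus. Fmod had 2.84 to 9.17 CPM in controls, 3.88 to 14.5 CPM in cKO+/- mice and 3.77 to 15.1 CPM in the 5 cKO-/- mice (log2 change per allele 0.41, SE 0.19, adjusted p = 0.25). Aspn had 1.24 to 1.64 CPM in controls and 1.25 to 2.58 CPM in cKO-/- mice (0.26, SE 0.10, adjusted p = 0.15), and 4 of 5 cKO-/- libraries lay above every control. Ogn changed by 0.16 (SE 0.14), Bgn by 0.14 (SE 0.14) and Prelp by -0.07 (SE 0.13). The 2 libraries with the most Ttr, those of the control Sample_1129 (4557 CPM) and the cKO-/- Sample_1385 (4542 CPM), were also the highest of their groups for Prelp, at 55.1 and 59.4 CPM. Omd stayed between 0.133 and 1.47 CPM in all 18 libraries, with counts from 4 to 41.

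**Figure D4:**
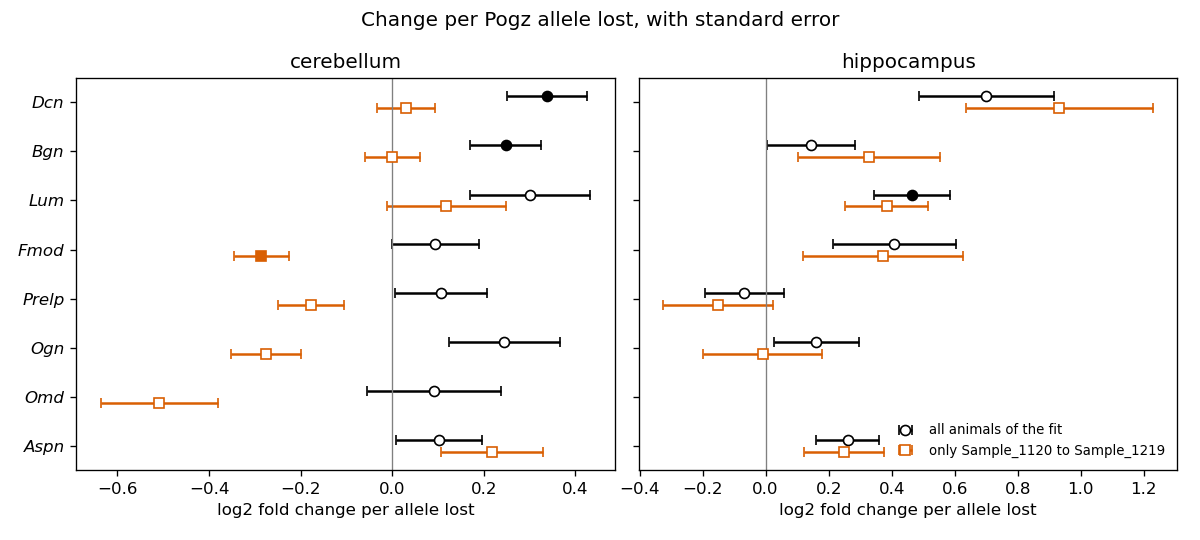
Log2 fold change per Pogz allele lost with its SE for each gene, over all animals of the fit (black circles) and over animals from Sample_1120 to Sample_1219 alone (orange squares), where filled symbols passed an FDR of 0.05. In the cerebellum Dcn goes from 0.34 to 0.03 and Fmod from 0.09 to -0.29, while in the hippocampus Dcn goes from 0.70 to 0.93 and Omd was not tested.

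The effect of an allele was not shown to differ between the tissues. In 1 fit over 35 libraries, the interaction of tissue and allele was called for 0 of 8 members, beside 1.63% of 14870 genes tested. Unadjusted p was under 0.05 for 0 members. The 8 include Omd, which passed the filter only through the cerebellum and had hippocampal counts of 4 to 41, so its interaction is no fair test. The hippocampal change exceeded the cerebellar one by 0.36 for Dcn (SE 0.23, adjusted p = 0.52) and by 0.30 for Fmod (SE 0.22, adjusted p = 0.57). For Bgn the difference was -0.12 (SE 0.16, adjusted p = 0.81). DESeq2 called 0 as well. The comparisons of both mutant genotypes share their controls within a tissue, and both tissues come from the same animals.

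Sex made no difference that passed the test. In the cerebellum 0 of 8 members differed between females and males (beside 0.0499% of all genes), with all 8 log2 differences negative, from -0.37 for Prelp to -0.08 for Omd. In the hippocampus 0 of 7 differed (beside 0.907% of all genes), with all 7 positive, from 0.07 for Bgn to 0.50 for Lum. In each tissue 1 member had an unadjusted p under 0.05, Prelp in the cerebellum and Lum in the hippocampus, and DESeq2 called 0 in both.

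Many pairs of members rose and fell together across the libraries of a tissue, in the cerebellum mainly when both sides of the number range were pooled. After the genotype mean was subtracted from log2 CPM, 17 of 28 pairs of members in the cerebellum (18 libraries) and 15 of 28 in the hippocampus (17 libraries) had a Pearson's r that passed a permutation test with adjustment over 72 relations, all of them positive. The closest pair in the cerebellum was Fmod and Ogn, with r = 0.92 (permutation p = 6e-05, adjusted p = 0.0016), Spearman's rho = 0.90 (permutation p = 8e-05, adjusted p = 0.00082) and r = 0.84 without the 2 libraries farthest from the median. Within the animals from Sample_1120 to Sample_1219 their r was 0.55 (11 libraries) and outside it 0.86 (7 libraries). Dcn and Bgn, the relatives with chondroitin or dermatan sulfate chains, had r = 0.87 (permutation p = 0.00011, adjusted p = 0.0016), rho = 0.83 (permutation p = 0.00018, adjusted p = 0.0014) and r = 0.81 without 2 libraries. Their r was 0.76 within the range and -0.21 outside it, so the relation did not hold in the latter. Over the 28 cerebellar pairs the median r was 0.62 in all libraries, 0.19 within the range and 0.18 outside it. The permutations mixed animals within and outside the range, so they cannot tell these relations apart from the split by animal number. How many pairs of other genes would pass was not computed.

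Aspn stood apart in the cerebellum, where its r with each of the other 7 members was negative, from -0.33 to -0.12, and none passed. In the hippocampus all 28 pairs were positive, with a median r of 0.60 in all libraries, 0.50 within the range (10 libraries) and 0.81 outside it (7 libraries). Sample_1219 was the only cKO-/- library within the range, so it equals its subtracted mean and adds nothing to the values there. Fmod and Omd were the closest pair in the hippocampus, with r = 0.90 (permutation p = 0.00014, adjusted p = 0.0017) and rho = 0.88 (permutation p = 6e-05, adjusted p = 0.00072). Their r was 0.79 without 2 libraries, and 0.82 and 0.95 within and outside the range. Ogn and Omd, neighbours on chromosome 13, had r = 0.80 (permutation p = 0.00033, adjusted p = 0.0024) and rho = 0.86 (permutation p = 4e-05, adjusted p = 0.00072), with r = 0.78 without 2 libraries and 0.86 both within and outside the range. Dcn and Bgn, so close in the cerebellum, had r = 0.14 in the hippocampus (permutation p = 0.63, adjusted p = 0.65) and rho = -0.01 (permutation p = 0.98, adjusted p = 0.98), and whether these values differ between tissues was not tested.

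The summed level of the 16 meningeal fibroblast markers, which include no member, moved with most of them. In the cerebellum it was 288 to 388 CPM in controls, 356 to 566 CPM in cKO+/- mice and 381 to 706 CPM in cKO-/- mice, with all 16 markers detected. Its r passed for 6 of 8 members, among them Bgn at 0.91 (permutation p = 3e-05, adjusted p = 0.0016; rho = 0.90, permutation p = 1e-05, which is the smallest the permutations can give, adjusted p = 0.00072) and Dcn at 0.90 (permutation p = 8e-05, adjusted p = 0.0016; rho = 0.84, permutation p = 0.00033, adjusted p = 0.0022). Without 2 libraries these were 0.85 and 0.82. Within the number range they were 0.59 and 0.79, and outside it 0.72 and 0.09. Aspn (-0.14) and Lum (0.52) did not pass. In the hippocampus the sum was 179 to 422 CPM in controls, 210 to 315 CPM in cKO+/- mice and 196 to 521 CPM in cKO-/- mice, and its r passed for 7 of 8 members. The exception was Dcn, at 0.35 (permutation p = 0.24, adjusted p = 0.29), the member with the largest hippocampal change. All values of a library share its total, and the share of all genes whose r with the sum would pass was not computed.

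**Figure D5:**
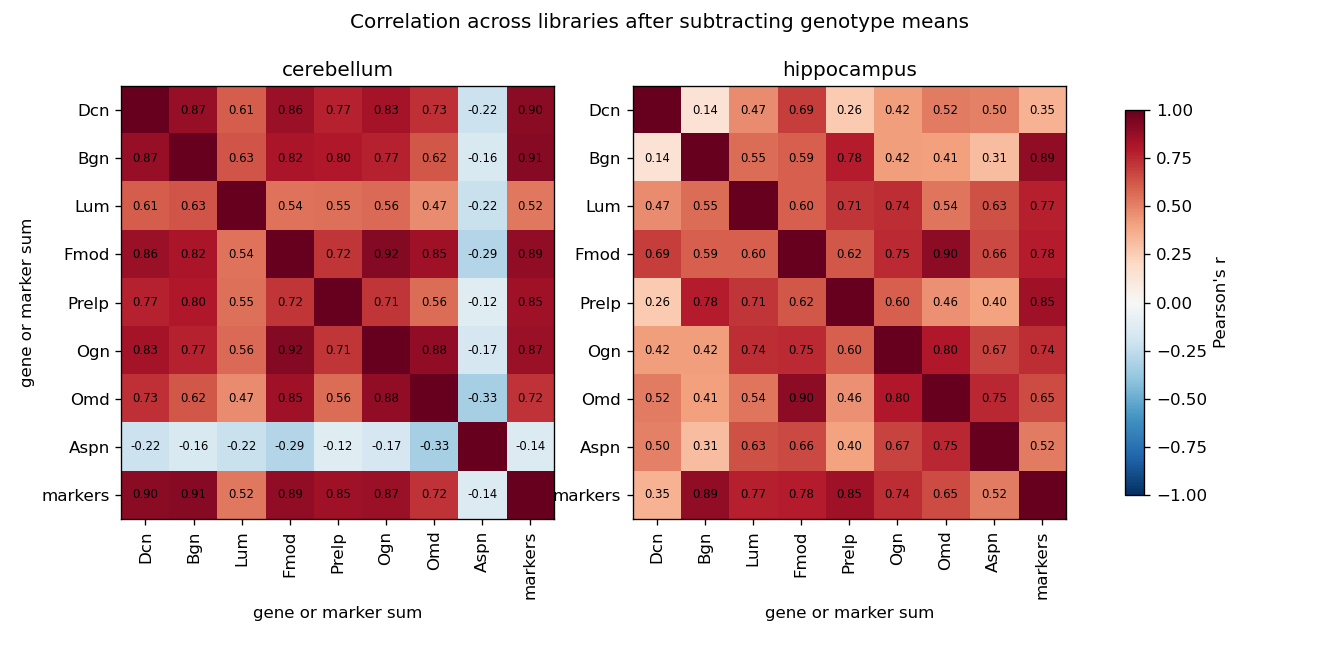
Pearson's r across libraries between the 8 genes and the summed meningeal fibroblast markers, after subtracting genotype means, in the cerebellum (18 libraries) and the hippocampus (17 libraries). Aspn is negative with every other row in the cerebellum, and Dcn has its lowest value in the hippocampus with Bgn (0.14).

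The genes whose pattern across libraries was most like the mean of the members were, in the cerebellum, Serpind1 (r = 0.95), Emp3, Gstm2, Smoc1 and Cd55 (r = 0.92), among 14019 genes over 18 libraries. In the hippocampus they were Uaca (r = 0.93), Fbln1, which is also on the meningeal list, Gstm2, Dab2 and Bmp7 (r = 0.92), among 14332 genes over 17 libraries. Gstm2, a glutathione transferase, was among the 5 closest in both tissues. These values are descriptions, with the genotype means subtracted and the library shared.

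Of 14 collagen genes, which encode the fibrils that these proteoglycans bind, 8 were higher per allele lost in the cerebellum and 0 lower, beside 7.11% of all genes higher, with a median log2 change of 0.38. The other 6 did not pass, 3 of them with negative values. They were led by Col1a2 (0.45, SE 0.057, adjusted p = 4.2e-05), Col12a1 (0.47), Col3a1 (0.62) and Col1a1 (0.52). Col1a2, a chain of collagen type I, had 36.8 to 48.5 CPM in controls, 48.3 to 64.9 CPM in cKO+/- mice and 52.4 to 90.3 CPM in cKO-/- mice. Within the number range its cKO-/- libraries were at 52.4 and 59.7 CPM, above every control, where those of Dcn were not. With the range as a term, 4 of 14 collagens were called, and among the animals within it 1 of 13. In the hippocampus 2 of 14 were higher (beside 2.09% of all genes), Col11a1 (0.38, SE 0.089, adjusted p = 0.020) and Col12a1 (0.33, SE 0.079, adjusted p = 0.023), and 0 of 14 over all 18 libraries.

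Some genes that build the glycosaminoglycan chains were higher. In the cerebellum these were 6 of 21, beside 7.11% of all genes. Among them were Chsy3, a chondroitin synthase (1.44, SE 0.24, adjusted p = 0.00074), Dse, which makes dermatan sulfate from chondroitin sulfate (0.41), Chst11 (0.17) and Chst2 (0.18). In the hippocampus 1 of 22 was higher, beside 2.09% of all genes. This was Xylt1 (0.21, SE 0.056, adjusted p = 0.040), the transferase that starts the chains. The list of proteases that process or degrade these proteins had 7 genes tested, of which 1, Timp3, encodes an inhibitor. In the cerebellum 5 of these 7 were higher and 1 lower, beside 7.11% of all genes higher. The foremost were Mmp14 (0.44, SE 0.074, adjusted p = 0.00091), Adamts5 (0.51), Adamts1 (0.35) and Adamts4 (0.24). In the hippocampus Mmp14 was higher (0.33) and Bmp1 lower (-0.23), of the same 7, beside 4.44% of all genes called. With the number range as a term, 1 of 21 chain genes and 2 of 7 genes of the protease list were called in the cerebellum, beside 2.20% of all genes. In the hippocampus 0 of either were called with it, beside 0.474% of all genes.

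Of the receptors bound by these proteoglycans, 3 of 9 were higher in the cerebellum (beside 7.11% of all genes), Tlr4 (1.49, SE 0.092, adjusted p = 2.4e-09), Egfr (0.22) and Itgb1 (0.13), and 1 of 9 with the number range as a term. In the hippocampus 3 of 10 were higher (beside 2.09% of all genes), Tlr4 (0.43), Met (0.41) and Kdr (0.32), and Igf1r was lower (-0.10), against 0 of 10 with the term and 0 of 10 over all 18 libraries. Of 8 TGF-beta ligands and receptors, Tgfb3 was lower in the cerebellum (-0.19, SE 0.047, adjusted p = 0.013) and Eng higher in the hippocampus (0.22, SE 0.056, adjusted p = 0.027), beside 13.7% and 4.44% of all genes called. With the term 0 of 8 were called in either tissue. Of the other genes of the proteoglycan family, Tsku was higher in the cerebellum (0.36, SE 0.11, adjusted p = 0.038), 1 of 4 tested, and Epyc in the hippocampus (0.27, SE 0.065, adjusted p = 0.022), 1 of 5 tested. In the control cerebellum Kera, the cornea member, was at 0 counts in every library.

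Markers of other cell types gave these counts per allele lost, beside 7.11% of all genes higher in the cerebellum and 2.09% in the hippocampus. Meningeal fibroblast markers were higher for 10 of 16 in the cerebellum, led by Col1a2, Igf2 (0.58, SE 0.084, adjusted p = 0.00021), Col3a1 and Col1a1, and for 0 of 15 in the hippocampus, where their median was 0.32. With the number range as a term 4 of 16 were called in the cerebellum (2.20% of all genes), and within the range 2 of 16 (1.74% of all genes). The collagen and meningeal lists share 3 genes, Col1a1, Col1a2 and Col3a1. In the cerebellum 0 of 6 choroid plexus, 0 of 8 pericyte and smooth muscle and 0 of 7 endothelial markers were higher, and Ly6c1 of the last was lower (-0.30). In the hippocampus 0 of 8 choroid plexus markers, Rgs5 of 8 pericyte markers (0.41) and Tek, Cdh5 and Pecam1 of 7 endothelial markers (0.27 to 0.33) were higher. Of bone and cartilage markers Dmp1 (0.86) and Phex (0.85) were higher in the cerebellum and Dmp1 (0.61) in the hippocampus, of 4 tested in each, while Bglap2 and Mepe were at 0 in the cerebellar controls and Bglap, which defines bone, at 0 in the cerebellar cKO+/- group. Folr1, which defines choroid plexus, was at 0 in the cerebellar controls. Among astrocyte markers 3 of 5 were higher in the cerebellum and 1 of 5 in the hippocampus. The part of these cell types in the changes of the proteoglycan genes was not tested.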

How the data were processed

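RNA-seq of the cerebellum and hippocampus of the same 18 mice was analysed from gene tables that the authors deposited as whole-number counts per gene, without normalization. According to the methods, poly(A) libraries were aligned and counted with STAR. The tables hold a column for each mouse. The methods and the submitters' processing notes name mm9, whereas the coordinates in the tables match GRCm38, and gene lengths and positions were taken from the tables. How multi-mapping reads and strand were treated is not given in the sources used here, and a few rows carry a duplicated symbol. Groups came from the sample labels, and each table was matched to its tissue through its name. The animal number joins both tissues of a mouse.

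The filter kept genes over 1 CPM in 6 or more libraries. They entered the quasi-likelihood F-test of edgeR 4.0.16 (R 4.3.3, legacy=TRUE) with TMM factors. The terms were the count of intact alleles and sex, or genotype as a factor for pairs of genotypes. P-values were adjusted by Benjamini-Hochberg over all genes tested, with calls at an FDR of 0.05. The filter and the hippocampal TMM factors were set over 18 libraries before Sample_1160 was left out. All log2 values are per allele lost unless stated. CPM and RPKM were computed from the deposited counts with the same factors. The tissues were compared in controls and by an interaction term. Correlations used log2 CPM with a prior count of 2, with genotype means subtracted and 100000 permutations of libraries within genotype. Alternatives were relative log expression factors, no filter on low counts, DESeq2 1.42.0, legacy=FALSE, no sex term, a term for animals outside Sample_1120 to Sample_1219, all hippocampal libraries, the animal as a block, and each animal left out in turn. Fits limited to Sample_1120 to Sample_1219 and to libraries with Ttr at or below 100 CPM were added after seeing the data. The members and lists were chosen with earlier results of these data known. The genes named beyond the 8 members were up to 4 per list with the smallest adjusted p per allele lost, other genes of the family, neighbours, the 5 most alike per tissue, markers at 0 and Pogz. Cdh11 and Ttr were named after their values were seen. The scripts were tested on simulated data. Promoter sequences are RefSeq windows of GRCm38.p6, in which 6 of 8 members matched, and Dcn and Lum were not among them. P-values measure the spread between mice, 1 library per mouse and tissue. For the tissue comparisons, deviations of the same animal in both tissues had a median correlation of 0.26 over 17 animals, from -0.27 to 0.43. Counts are reads without molecular identifiers, so low genes such as hippocampal Omd are limited by counting error. Sample_1160 was taken to be the study's unnamed excluded sample, as in an earlier analysis of these data.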

Additional observations from a re-analysis of the deposited data

Results flagged for a closer look

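In 48 groups of 5 or 6 libraries, 7 had a library far from the others by Dixon's criterion, which chance gives in about 1 of 20 groups. In the cerebellum these were Lum at 12.8 CPM in the cKO+/- Sample_1433 (next 7.35 CPM), Omd at 1.77 CPM in the cKO+/- Sample_1120 (next 2.80 CPM) and Aspn at 1.66 CPM in the cKO-/- Sample_1385 (next 2.80 CPM). Among cerebellar controls they were Bgn at 13.1 CPM in Sample_1170 (next 17.1 CPM) and Prelp at 30.1 CPM in Sample_1192 (next 21.3 CPM). In the hippocampus they were Lum at 17.2 CPM in the cKO-/- Sample_1385 (next 7.87 CPM) and Bgn at 30.9 CPM in the control Sample_1129 (next 16.5 CPM).

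The hippocampal cKO-/- library of Sample_1160, left out of the fit, lay above the highest control for 5 members. It had 53.4 CPM of Dcn (highest control 41.0), 9.88 CPM of Lum (7.78), 13.7 CPM of Fmod (9.17), 1.05 CPM of Omd (0.843) and 1.69 CPM of Aspn (1.64).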

How the results depend on the processing

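The 4 members called for the tissue difference in controls stayed called under all 5 alternatives and with each control left out. Omd, which passed the filter only through the cerebellum, is not counted. The animal as a replicate block gave the same 4, and 0 for the interaction. It turned the uncalled tissue difference of Bgn to -0.015 and changed no other member's direction or call. Counts of members called per allele lost in the cerebellum (2 in the report) were 0 with the term for animal numbers, 1 within the range and 1 over libraries with Ttr at or below 100 CPM, and 1 to 3 with an animal left out. For cKO-/- against control (2) they were 0, 0 and 1, and 0 to 4. In the hippocampus per allele (1) they were 2 with DESeq2 and 0 without a sex term, with the term for numbers, within the range and at low Ttr, and 0 to 2 with an animal left out. For cKO-/- (2) they were 1 without a sex term, 0 with the term, over all 18 libraries, within the range and at low Ttr, and 0 to 3. For cKO+/- (0) they were 1 with DESeq2, and 0 to 1. Relations passed (45 of 72) were 27 without 2 libraries. The causes were not tested.

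Dcn in the cerebellum was called per allele in all 18 fits with an animal left out (adjusted p at most 0.049), and Bgn in 7. Hippocampal Dcn was called per allele without Sample_936 or Sample_1433.

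Directions turned as follows, none of them called but that of Fmod in the report. In the cerebellum with the term for numbers, per allele, Fmod was -0.10, Ogn -0.064, Omd -0.25 and Prelp -0.16, and within the range Fmod -0.29, Ogn -0.28, Omd -0.51 and Prelp -0.18. For cKO-/- these were -0.25, -0.18, -0.51 and -0.31 with the term, and -0.51, -0.50, -1.12 and -0.37 within the range, where Bgn was -0.042. For cKO+/-, Prelp was -0.15 with the term, -0.13 within the range and -0.087 at low Ttr. In the hippocampus Ogn was -0.023 with the term and -0.0094 within the range per allele, and -0.044 and -0.063 for cKO-/-. Bgn was 0.18 for cKO+/- at low Ttr. The interaction with the term was 0.22 for Bgn, 0.025 for Ogn and 0.074 for Prelp. With an animal left out, uncalled values crossed 0 as follows. In the cerebellum Omd ran from -0.044 to 0.18 per allele, -0.076 to 0.38 for cKO-/- and -0.18 to 0.10 for sex. In the hippocampus Bgn ran from -0.017 to 0.28 per allele, -0.27 to 0.077 for cKO+/-, -0.0075 to 0.55 for cKO-/- and -0.14 to 0.24 for sex, and Prelp from -0.24 to 0.014 per allele, -0.46 to 0.051 for cKO-/- and -0.041 to 0.27 for sex. The tissue difference ran from -0.28 to 0.24 for Dcn and -0.17 to 0.16 for Bgn, and the interaction of Bgn from -0.32 to 0.013.

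Genes called in all per allele were 1916 in the cerebellum, with 308 under the term for numbers and 238 within the range. In the hippocampus they were 636, with 1056 by DESeq2, 68 under the term, 246 over all 18 libraries, 18 within the range and 114 at low Ttr. The fits within the range and at low Ttr were chosen after seeing the data.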
